A study of Mus musculus with 6 samples.

Results

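The sarcomeric myosin heavy chains are the motor proteins of the thick filament in striated muscle, and the 9 genes examined here were the rows of the count table named Myh1, Myh2, Myh3, Myh4, Myh6, Myh7, Myh7b, Myh8 and Myh13, out of 53084 rows in all. RNA was sequenced from the muscle of 3 wild-type (Tarsl2+/+, called WT) and 3 homozygous Tarsl2 knockout (Tarsl2-/-, called KO) mice. The labels describe all 6 animals as male C57BL/6 mice that were 6 weeks of age and ate standard chow, with 1 library per mouse. In the KO mice, exon 3 of Tarsl2, which encodes a threonyl-tRNA synthetase-like protein, was removed by CRISPR/Cas9 in the germ line, so that every tissue carries the deletion. The labels do not say which muscle was taken, nor whether littermates were compared. The study asked what loss of Tarsl2 does to muscle, and the comparison below asks whether the KO libraries differed from the WT libraries in the level of each heavy chain gene and in its share of the summed heavy chain counts.

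A myosin heavy chain folds into a head that binds actin and hydrolyses ATP and a long tail that packs into the thick filament. Each muscle fibre is classed by the heavy chain it makes. Myh7 encodes the slow type I chain and Myh2, Myh1 and Myh4 the fast type IIa, IIx and IIb chains, in order of rising shortening speed. Myh3 and Myh8 encode the embryonic and perinatal chains that developing and regenerating fibres use. Myh6 encodes the alpha chain of the heart, Myh13 an extraocular chain and Myh7b an ancient slow-type chain. Myh7 is also the beta chain of the heart.

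Total counts per library lay between 16176591 and 20123767, so that 3 counts corresponded to between 0.149 and 0.185 CPM (counts scaled to a common library total). Expression of the targeted gene matched the labels, since Tarsl2 had between 456 and 605 counts in the WT libraries and between 30 and 40 in the KO libraries. The log2 fold change (KO over WT in every such value below) was -3.81, with an adjusted p of 6.45e-07 by edgeR's quasi-likelihood test. The tissue label was checked against marker lists. The 7 skeletal muscle markers together had between 28479 and 36504 CPM in the 6 libraries. The 6 heart markers had at most 16 counts each, with Nppa and Nppb at 0 in every library, and the 6 retina markers, examined because 1 protocol label mentions retinas, had at most 7.

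Of the 9 genes, 6 lie side by side on the forward strand of chromosome 11 (GRCm38), and the others lie elsewhere. In chromosomal order they were Myh3 (chr11:67078300-67102291), Myh2 (chr11:67171027-67197517), Myh1 (chr11:67200052-67224575), Myh4 (chr11:67238029-67260446), Myh8 (chr11:67277124-67308634) and Myh13 (chr11:67321658-67371586). Myh6 (chr14:54941981-54966927) and Myh7 (chr14:54970688-54994634) are neighbours on the reverse strand of chromosome 14. Myh7b (chr2:155611212-155634307) lies alone on the forward strand of chromosome 2. The longest coding transcripts in GENCODE vM21 had 39 to 42 exons and coded for 1935 to 1942 amino acids, so that the coding lengths differ little.

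The coding sequences are alike enough that short stretches of a read can fit more than 1 gene. Over aligned coding bases, Myh1 was 91.0% identical to Myh2 and 90.1% to Myh4, Myh2 was 88.2% identical to Myh4, and Myh6 was 91.7% identical to Myh7. Myh7b stood apart, at 67.9% to 71.7% identity with the others. Of all 150-base windows in the longest coding transcript, 0.511% of those of Myh4, 2.49% of those of Myh1, 2.06% of those of Myh2 and 5.43% of those of Myh7 also occurred whole in a transcript of another heavy chain gene. With 50-base windows these shares were 18.9%, 26.7%, 26.9% and 22.2%. How the counting treated reads that match several genes is not given in the sources used here, so reads from such stretches may have been split or dropped.

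**Figure D1:**
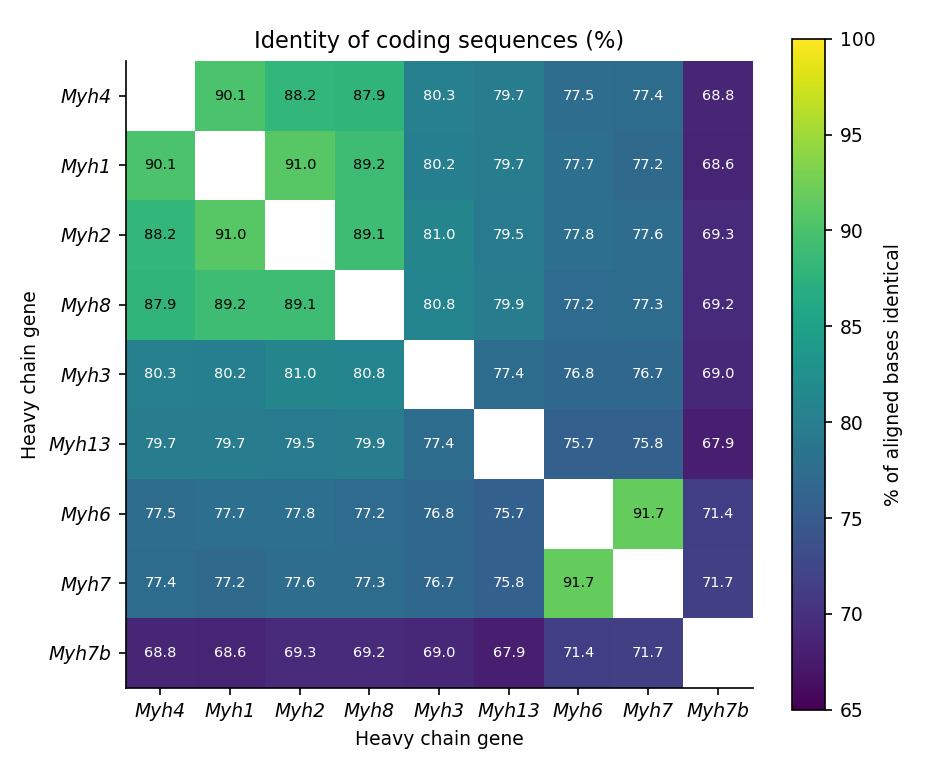
The heat map gives the percentage of aligned coding bases that are identical for each pair of the 9 heavy chain genes (longest coding transcript of each, GENCODE vM21), with both axes listing the genes and the colour scale running from 65 to 100%. Myh4, Myh1, Myh2 and Myh8 are at 87.9% to 91.0% with each other, Myh6 and Myh7 at 91.7%, and Myh7b is at most 71.7% with any other gene.

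A stretch of 60 bases shows what separates the reads of the 4 adult limb muscle chains. Of 4891 aligned windows with no gap in them or within 60 bases on either side, it had the lowest mean identity between these 4 genes, 66.4%, against a median of 83.9%. It starts at coding base 3814 in Myh4, at 3823 in Myh1 and Myh2 and at 3802 in Myh7, and capitals mark bases that differ from Myh4.
Myh4: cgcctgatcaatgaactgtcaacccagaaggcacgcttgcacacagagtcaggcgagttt
Myh1: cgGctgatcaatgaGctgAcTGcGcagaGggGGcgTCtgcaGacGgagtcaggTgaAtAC
Myh2: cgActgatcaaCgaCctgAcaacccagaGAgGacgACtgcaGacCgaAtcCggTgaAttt
Myh7: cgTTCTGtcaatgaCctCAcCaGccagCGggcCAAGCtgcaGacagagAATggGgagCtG
Myh1 differed from Myh4 at 17 of these bases, Myh2 at 15 and Myh7 at 24. At the other extreme, the longest run shared exactly by Myh4 and Myh1 spanned 161 bases, starting at coding base 3241 of Myh4 and 3250 of Myh1, which is longer than a 150-base window.
shared by Myh4 and Myh1: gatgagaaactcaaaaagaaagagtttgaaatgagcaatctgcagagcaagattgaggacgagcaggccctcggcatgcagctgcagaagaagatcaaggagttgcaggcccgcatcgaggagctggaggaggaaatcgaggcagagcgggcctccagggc
Myh1 and Myh2 shared a longer run, of 268 bases.

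The muscle was made up, by transcript level, of fast fibre heavy chains with Myh4 far above the rest. Levels between genes were compared as CPM per kilobase of exons. Over the 6 libraries, Myh4 was at 1116 ± 176 (SD, n = 6), Myh1 at 68.5 ± 15.9, Myh2 at 16.0 ± 6.21 and Myh7 at 2.32 ± 1.91. The chains of developing, extraocular and heart muscle were lower, with Myh3 at 0.405 ± 0.154, Myh8 at 0.153 ± 0.0465, Myh7b at 0.0928 ± 0.0543, Myh13 at 0.0449 ± 0.0287 and Myh6 at 0.0245 ± 0.0169. From Myh4 to Myh3, each gene was above the next in 6 of 6 libraries and no values overlapped. Myh3 and Myh8 overlapped across libraries, although Myh3 was higher within each of the 6. Myh8 and Myh7b, Myh7b and Myh13, and Myh13 and Myh6 overlapped and kept their order in only 5, 4 and 4 of the 6 libraries, so these neighbours were not told apart. The exonic length of Myh8 in the table is 11772 bases, against 6149 for its longest coding transcript. With transcript lengths in place of exonic lengths, Myh3 was above Myh8 in 5 of 6 libraries.

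**Figure D2:**
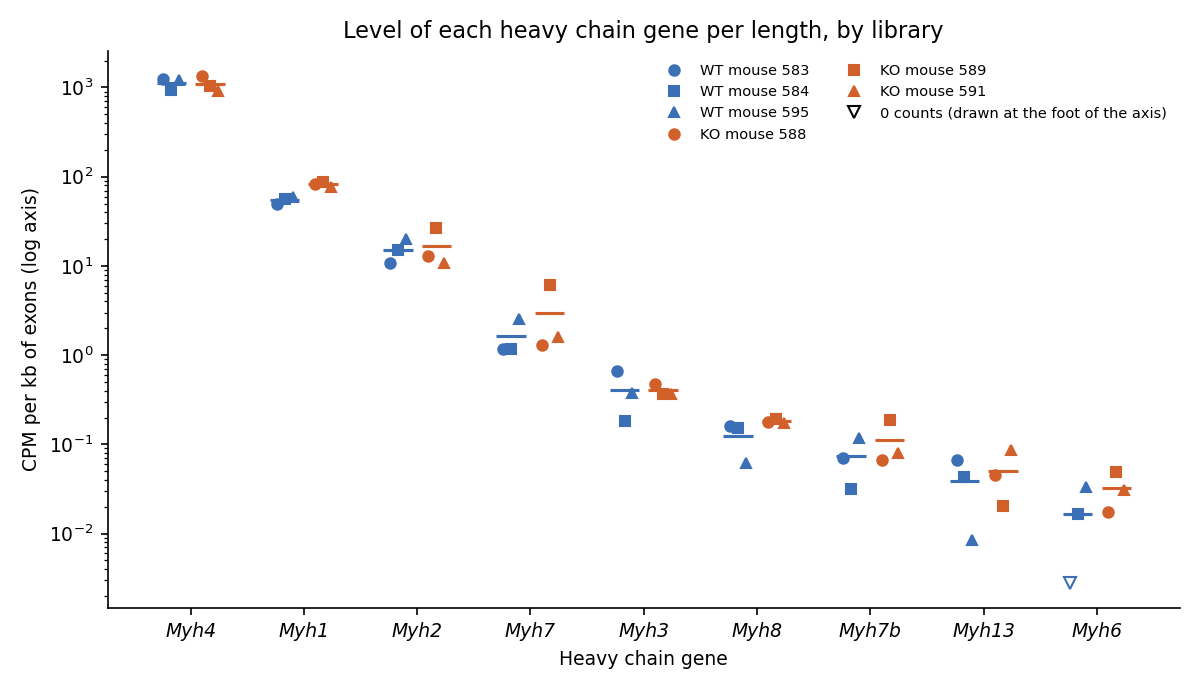
CPM per kilobase of exons (log axis) is plotted for each of the 9 heavy chain genes, with 1 symbol per library, WT in blue and KO in orange, and a short line at each genotype's mean. The genes fall from Myh4, near 1116, through Myh1, Myh2 and Myh7 to Myh6, which had 0 counts in WT mouse 583, and the KO symbols stand clear of the WT symbols for Myh1 and Myh8.

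Seen as a share of the summed heavy chain counts, Myh4 had 93.4% ± 1.40 (SD, n = 3) in WT and 90.6% ± 1.99 in KO muscle. Myh1 had 4.85% ± 0.971 in WT and 7.28% ± 1.07 in KO muscle, Myh2 had 1.52% ± 0.472 and 1.66% ± 0.889, and Myh7 had 0.192% ± 0.0813 and 0.363% ± 0.325. The other 5 genes had at most 0.0501% of the counts in any library. The summed heavy chains themselves were a small part of each library, between 0.622% and 0.843%, whereas the fast regulatory light chain gene Mylpf alone had between 3.31% and 3.97%. Per kilobase, Mylpf was 24.7 to 36.1 times the summed heavy chains. In CPM the heavy chains summed to 7271 ± 1026 (SD, n = 3) in WT and 7309 ± 1311 in KO muscle, a difference smaller than the spread between mice.

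Among the 7 heavy chain genes with enough counts to be tested, Myh1 alone rose in KO muscle at an adjusted p under 0.05 and none fell, and Myh1 was also the 1 gene of the 7 at an unadjusted p under 0.05. Myh6 and Myh13 had at most 5 and 11 counts in any library and were not tested. For comparison, 2.27% of the 15075 genes tested differed between genotypes in either direction, and 0.896% were higher in KO muscle, while 19.8% had an unadjusted p under 0.05. The median log2 fold change was 0.54 over the 7 heavy chains and 0.00253 over all tested genes. The median of the heavy chains was 0.00714 without KO mouse 589.

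Myh1, the IIx chain, had 5308, 6709 and 7118 counts in WT mice 583, 584 and 595 and 9466, 8842 and 10097 counts in KO mice 588, 589 and 591. In normalized CPM this was 310.3, 356.4 and 373.7 in the WT libraries and 527.7, 551.5 and 490.7 in the KO libraries. Every KO library was above every WT library, and the spread within each genotype was small. The means were 346.8 ± 32.8 CPM (SD, n = 3) in WT and 523.3 ± 30.6 CPM in KO muscle, a 1.51-fold difference. The log2 fold change was 0.59 with a standard error (SE) of 0.10 and an adjusted p of 0.0150 by edgeR's quasi-likelihood test. This call was lost without WT mouse 583 (log2 fold change 0.51, adjusted p = 0.0775) and without KO mouse 589 (log2 fold change 0.56, adjusted p = 0.0609). It was kept when any of the other 4 libraries was left out. In bulk RNA, more fibres of a type cannot be told apart from more RNA per fibre. The summed leukocyte markers (Ptprc, Cd68, Cd74, Cd3e and Itgam) were lower in every KO library, at 121.8 to 132.2 CPM in WT and 53.9 to 71.4 CPM in KO libraries. The summed skeletal muscle markers described below were higher in every KO library. The part of either in the difference in Myh1 was not tested.

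The share of Myh1 showed the same separation but with a narrow gap. It was 3.91%, 5.85% and 4.79% of the heavy chain counts in WT mice 583, 584 and 595 and 6.06%, 7.78% and 8.02% in KO mice 588, 589 and 591. The highest WT library, mouse 584, had an exact 95% binomial interval of 5.72% to 5.99%, and the lowest KO library, mouse 588, one of 5.94% to 6.17%, and these intervals overlapped. Both cover counting error only. The difference in mean share was 2.43 percentage points, and the exact two-sided permutation test over the 20 assignments of the libraries gave p = 0.1, the smallest that 3 mice against 3 allow. Of the 9 shares, that of Myh1 was the only 1 in which the genotypes did not overlap. Shares sum to 100% and are not independent. With Myh4 left out of the denominator this separation was lost, since Myh1 then had 76.7%, 74.6% and 69.1% in WT mice 583, 584 and 595 and 82.8%, 68.9% and 83.7% in KO mice 588, 589 and 591. Per 100 counts of Myh4, the libraries held 4.12, 6.35 and 5.15 counts of Myh1 in WT mice 583, 584 and 595 and 6.53, 8.77 and 8.86 in KO mice 588, 589 and 591.

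**Figure D3:**
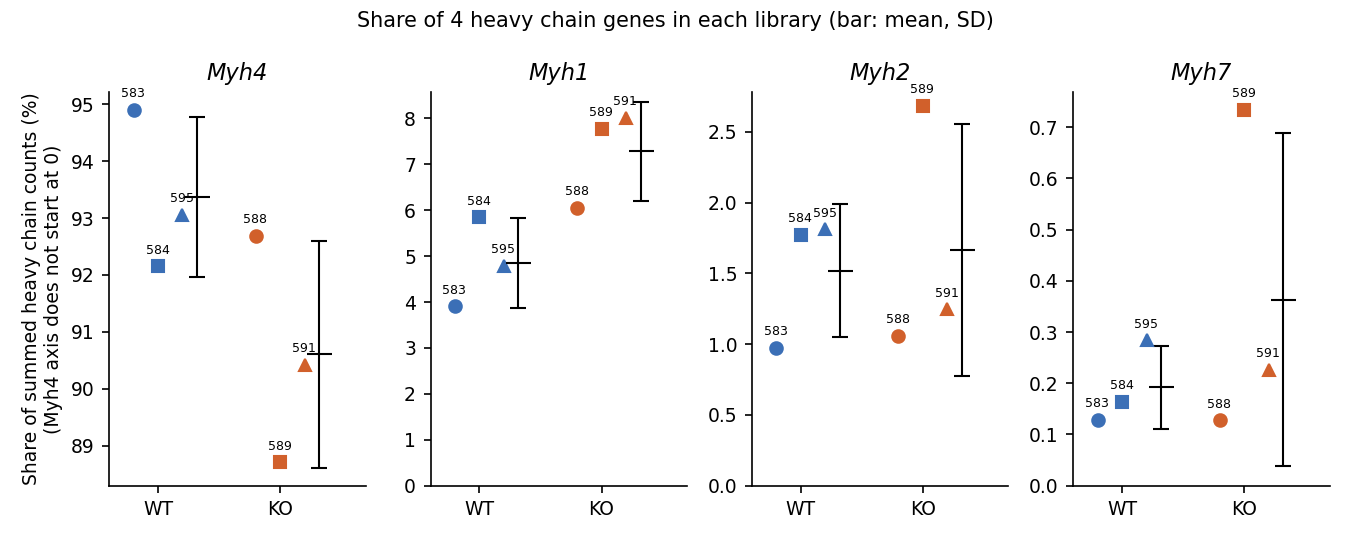
The share of the summed heavy chain counts (%) is plotted for Myh4, Myh1, Myh2 and Myh7, each with its own axis, 1 symbol per library labelled by mouse number, and the mean and SD of each genotype beside the symbols. The Myh4 axis does not start at 0. For Myh1 all 3 KO libraries (6.06% to 8.02%) lie above the 3 WT libraries (3.91% to 5.85%), while for Myh2 and Myh7 KO mouse 589 lies above the 5 other libraries, at 2.69% and 0.734%.

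Myh4, the IIb chain and the most abundant of the 9, did not pass the test. It had 128739, 105633 and 138158 counts in WT mice 583, 584 and 595 and 144905, 100825 and 113905 counts in KO mice 588, 589 and 591. The highest and the lowest library were both from KO mice, and the genotypes overlapped. The means were 6797 ± 1035 CPM (SD, n = 3) in WT and 6634 ± 1306 CPM in KO muscle, and the log2 fold change was -0.03 (SE 0.16, adjusted p = 0.936 by edgeR's quasi-likelihood test). An interval of 2 standard errors around it ran from -0.35 to 0.28. The share of Myh4 was 94.9%, 92.2% and 93.1% in WT mice 583, 584 and 595 and 92.7%, 88.7% and 90.4% in KO mice 588, 589 and 591. The mean share was 2.76 percentage points lower in KO muscle, with overlap between KO mouse 588 and the WT libraries (exact two-sided permutation test, p = 0.2).

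Myh2, the IIa chain, varied more within the genotypes than between them. It had 1323, 2030 and 2690 counts in WT mice 583, 584 and 595 and 1658, 3052 and 1571 counts in KO mice 588, 589 and 591. KO mouse 589 was the highest and WT mouse 595 the next, with the other 2 KO libraries below the middle of the WT range. The means were 108.8 ± 31.9 CPM (SD, n = 3) in WT and 119.7 ± 61.7 CPM in KO muscle (log2 fold change 0.14, SE 0.30, adjusted p = 0.851 by edgeR's quasi-likelihood test). Without KO mouse 589 the log2 fold change was -0.37 (adjusted p = 0.428).

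Myh7, the slow type I chain, had the largest log2 fold change of the 7 tested, with a wide error. It had 174, 188 and 421 counts in WT mice 583, 584 and 595 and 200, 834 and 285 counts in KO mice 588, 589 and 591. KO mouse 589 and WT mouse 595 were again the highest library of each genotype, and the other 4 libraries lay between 174 and 285 counts. The means were 14.1 ± 6.94 CPM (SD, n = 3) in WT and 25.7 ± 22.9 CPM in KO muscle, and the log2 fold change was 0.85 (SE 0.50, adjusted p = 0.385 by edgeR's quasi-likelihood test). Without KO mouse 589 it was -0.17 (adjusted p = 0.842). The spread of Myh7 between mice of 1 genotype was larger than that of 99.5% of tested genes, and that of Myh1 was larger than that of 27.0%.

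The low heavy chains gave no call. Myh8, the perinatal chain, had 32, 34 and 14 counts in the WT libraries and 38, 36 and 42 in the KO libraries. Its CPM did not overlap between genotypes (log2 fold change 0.54, adjusted p = 0.395 by edgeR's quasi-likelihood test), which held for 2 of the 7 tested heavy chains, Myh1 and Myh8, while 12.6% of all tested genes had every KO library above every WT library. Myh3, the embryonic chain, had 21 to 68 counts in WT and 36 to 51 in KO libraries, with 133 counts in all in each genotype and a log2 fold change of -0.00442 (adjusted p = 0.997). An interval of 2 standard errors around it ran from -0.74 to 0.74, so a change within it was not detectable at this depth and spread. Myh7b had 4 to 15 counts in WT and 8 to 20 in KO libraries (log2 fold change 0.56, adjusted p = 0.615). Myh13 had 13 counts in all WT and 18 in all KO libraries, and Myh6 had 6 and 11.

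The primer pair that the study lists under the name MyHC for RT-qPCR was matched to the GENCODE vM21 transcripts, since MyHC is a name for the whole family. The primers are shown here to identify the gene they measure.
MyHC forward: cgcagaatcgcaagtcaata
MyHC reverse: atatcttctgccctgcacca
Both primers matched exactly only in the 3 transcripts of Myh3, with a product of 116 bases that starts in the coding sequence and ends in the 3' UTR. The forward primer also matched 1 transcript of Myh15. In the other 8 heavy chain genes the forward primer had at least 4 mismatches and the reverse primer at least 5. By sequence the pair matches the embryonic chain, whose counts are given above, and none of the 3 adult fast chains.

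The other rows of the table at these loci were examined next. Reads of a gene and of its antisense partner cannot be told apart without strand, and the strand setting of the counting is not given in the sources used here. Myhas, a long antisense RNA, overlaps 13320 bases of Myh1. It also reaches into the 250 bases before the RefSeq start of Myh4 (chr11:67237562-67237811). That start lies upstream of the start of Myh4 in the count table, given above. Myhas had 1380, 1318 and 1120 counts in WT mice 583, 584 and 595 and 1377, 1012 and 1448 in KO mice 588, 589 and 591. Its log2 fold change was 0.00623 (SE 0.12, adjusted p = 0.987 by edgeR's quasi-likelihood test). Counts of Myh1 per 100 counts of Myhas were 509.7 ± 125.5 (SD, n = 3) in WT and 752.8 ± 104.8 in KO muscle, without overlap. A second antisense row, 9430073C21Rik, which overlaps 1838 bases of Myh2, had 10 to 30 counts (log2 fold change 0.68, adjusted p = 0.300). Trpc4ap, a gene whose end overlaps 37 bases of Myh7b, was at 0.13 (adjusted p = 0.552), and Cmtm5, next to Myh6, had at most 10 counts. The other 9 rows within 10 kb of a heavy chain gene, Il25, Mhrt, Mir208a, Mir208b, Mir499, Mir6923, Gm29015, Gm17428 and Gm26476, were at 0 in every library.

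Of those rows, 4 are microRNAs that lie within a heavy chain gene. Mir6923 lies within Myh3 and is named only, and the other 3 lie in introns. These 3 are shown because they are made from the same primary transcripts as Myh6, Myh7 and Myh7b, with the seed (bases 2 to 8) in capitals. The mature sequences are those of RefSeq (GRCm38.p6).
miR-208a-3p (Myh6 intron): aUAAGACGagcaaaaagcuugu
miR-208b-3p (Myh7 intron): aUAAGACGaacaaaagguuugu
miR-499-5p (Myh7b intron): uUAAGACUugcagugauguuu
The first 2 share a seed, and that of miR-499-5p differs from it in its last base. A library of poly(A) RNA does not hold mature microRNAs, so the 0 counts of these rows say nothing about their level.

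The promoters of the 3 adult fast chains are shown because these genes are neighbours and only Myh1 passed the test. They are the 150 bases before the RefSeq start (GRCm38.p6, forward strand of chromosome 11), with capitals for the letters of a matched motif.
Myh1 (chr11:67199952-67200101): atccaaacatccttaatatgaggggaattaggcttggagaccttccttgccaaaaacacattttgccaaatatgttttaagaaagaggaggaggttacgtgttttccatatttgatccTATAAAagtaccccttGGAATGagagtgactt
Myh2 (chr11:67170877-67171026): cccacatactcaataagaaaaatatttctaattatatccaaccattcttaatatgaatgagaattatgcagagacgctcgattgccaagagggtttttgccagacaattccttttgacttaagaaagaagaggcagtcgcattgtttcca
Myh4 (chr11:67237662-67237811): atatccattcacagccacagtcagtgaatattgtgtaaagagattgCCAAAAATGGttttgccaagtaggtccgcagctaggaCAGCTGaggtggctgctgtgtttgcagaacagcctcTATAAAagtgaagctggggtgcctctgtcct
Both strands were searched for 5 motifs. The TATA box was searched as TATAAA. The E-box, the site of myogenic factors such as MyoD, was searched as CANNTG. The MCAT motif, the site of TEAD factors, was searched as CATTCC. The MEF2 and CArG motifs are given by name alone. A match to 1 motif may overlap a match to another. In these windows Myh1 held a TATA box and a reverse-strand MCAT, Myh4 held a CArG motif, an E-box and a TATA box, and Myh2 held none. The start of Myh1 in the count table (chr11:67200052) lies upstream of its RefSeq start. The end of the Myh1 window, with both matches, therefore lies inside the gene as the count table places it. Over the whole 250 bases before the start, Myh1 also held a MEF2 motif and Myh4 a MEF2 motif and an MCAT, while Myh2 again held none. Over the 250 bases before the start of 32851 promoters, 12.4% held a TATA box, 66.2% an E-box, 12.6% an MCAT, 2.92% a MEF2 motif and 1.47% a CArG motif. A match is a description of the letters and not evidence that a factor binds.

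Within each genotype, the partners of the heavy chains in slow fibres were mostly highest in the same mouse as Myh7. None of the 11 slow fibre genes passed edgeR's test (6 had an unadjusted p under 0.05, 1 passed by DESeq2, 0 by limma-voom and 6 with no filter on low counts), all 11 had a log2 fold change above 0, and the median was 0.33, against 50.4% of all tested genes above 0. Myl3, a slow essential light chain, had 308.0, 325.1 and 536.8 CPM in WT mice 583, 584 and 595 and 423.2, 614.6 and 428.8 CPM in KO mice 588, 589 and 591 (log2 fold change 0.33, adjusted p = 0.415 by edgeR's quasi-likelihood test). Myl2, the slow regulatory light chain, was at 0.28 (adjusted p = 0.563) and Tpm3, the slow tropomyosin, 0.28 (adjusted p = 0.332). KO mouse 589 had the highest level of all 6 libraries for 11 of the 11 genes, and WT mouse 595 the highest of the WT libraries for 10. For 2 of the 11, every KO library was above every WT library, as it was for 12.6% of all tested genes. The slow fibre median was 0.21 without KO mouse 589 and 0.67 without WT mouse 595, and without the latter 1 of the genes passed the test. Of the 7 heavy chains tested, Myh1, Myh2, Myh7, Myh7b and Myh8 were highest in KO mouse 589. Without WT mouse 595, the log2 fold change of Myh1 was 0.65 (adjusted p = 0.0233).

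**Figure D4:**
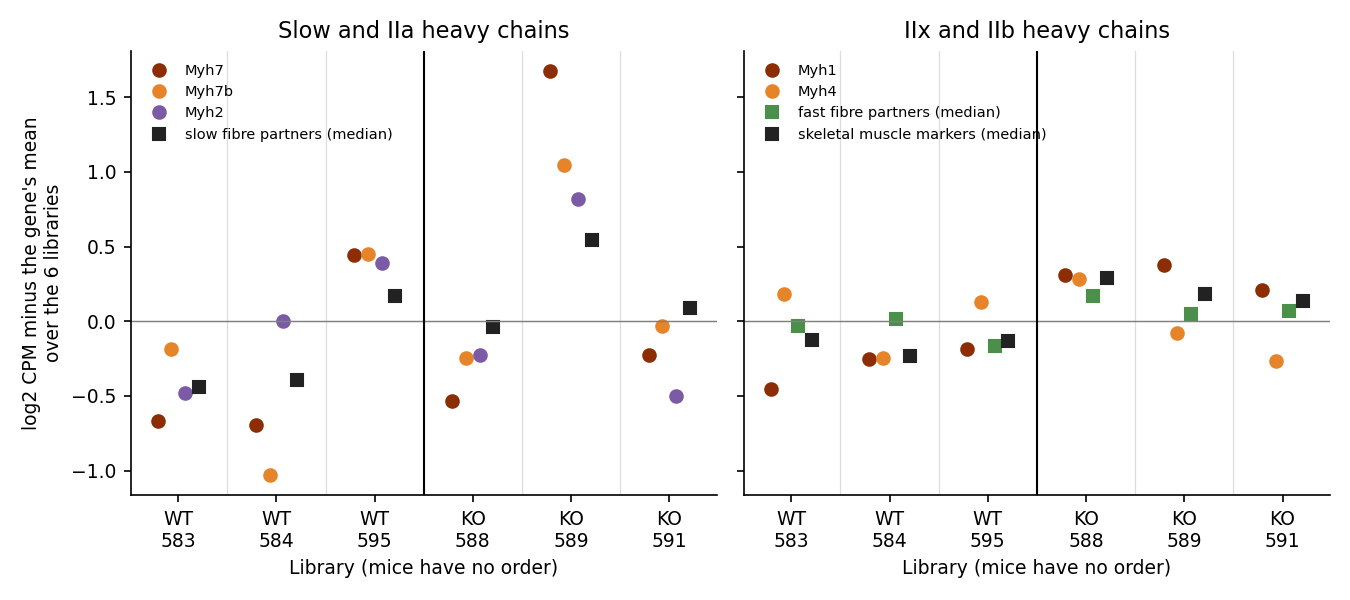
For each library, log2 CPM minus the gene's own mean over the 6 libraries is plotted for Myh7, Myh7b, Myh2 and the median of the slow fibre partners (left) and for Myh1, Myh4 and the medians of the fast fibre partners and skeletal muscle markers (right). KO mouse 589 and WT mouse 595 stand highest in their genotype on the left, with Myh7 at 1.68 and 0.44, whereas on the right Myh1 and the skeletal muscle markers are below 0 in every WT library and above 0 in every KO library.

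The fast fibre partners were mixed. Of 13 genes 12 were tested, 9 had a log2 fold change above 0, the median was 0.18, and 1 rose by edgeR, as against 0.896% of all tested genes. By DESeq2 4 rose, and with no filter on low counts 3. The median was 0.0903 without KO mouse 588. The gene past edgeR's threshold was Actn3, the alpha-actinin of fast fibre Z-discs, which rose from 2679 ± 120 CPM (SD, n = 3) in WT to 4332 ± 290 CPM in KO muscle (log2 fold change 0.69, SE 0.10, adjusted p = 0.00807 by edgeR's quasi-likelihood test). The adjusted p of Actn3 was 0.0568 without WT mouse 583 and stayed under 0.05 without any other library. The most abundant members did not pass. Mylpf, the fast regulatory light chain, was at 0.08 (adjusted p = 0.762) and Pvalb, the calcium buffer of the fastest fibres, -0.23 (adjusted p = 0.347). Tnnc2, the fast troponin C, had at most 4 counts in any library and was not tested, a value noted after the data were seen, although the fast troponins Tnnt3 and Tnni2 were at 13230 ± 723 and 10343 ± 432 CPM in WT muscle.

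Of 7 general skeletal muscle markers, 3 rose, as against 0.896% of all tested genes, and the other 4 did not pass the test. All 7 had a log2 fold change above 0, with a median of 0.38. Ckm, the muscle creatine kinase, rose with a log2 fold change of 0.49 (adjusted p = 0.0433 by edgeR's quasi-likelihood test), Des, the intermediate filament desmin, with 0.50 (adjusted p = 0.0196) and Ryr1, the calcium release channel, with 0.42 (adjusted p = 0.0403). The Ryr1 call was lost when any of the 6 libraries was left out, Ckm kept its call only without WT mouse 584, and Des only without WT mouse 584 or 595. The summed level of the 7 markers was 28479 to 30253 CPM in WT and 32998 to 36504 CPM in KO libraries.

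Set against single muscle genes, the separation of Myh1 depended on the gene chosen. Per 100 counts of Mylpf, Myh1 had 0.973 ± 0.129 counts (SD, n = 3) in WT and 1.39 ± 0.121 in KO libraries, and per 100 counts of Acta1, the skeletal actin, 1.60 ± 0.187 and 2.20 ± 0.180, without overlap in either. Per 100 counts of Ckm it had 6.42 ± 1.07 in WT and 6.86 ± 0.650 in KO libraries, per 100 of Des 38.8 ± 1.95 and 41.5 ± 2.98, and per 100 of Actn3 13.0 ± 1.45 and 12.1 ± 1.17. Per 100 counts of Ryr1 it had 116.4 ± 16.3 in WT and 130.9 ± 4.04 in KO libraries. In the ratios to Ckm, Des, Actn3 and Ryr1 the genotypes overlapped. Those genes were themselves called higher in KO muscle, whereas Mylpf and Acta1 were not. The ratios therefore depend on the denominators' own differences and are no separate test of Myh1. The genes in these ratios were chosen after their values were seen.

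**Figure D5:**
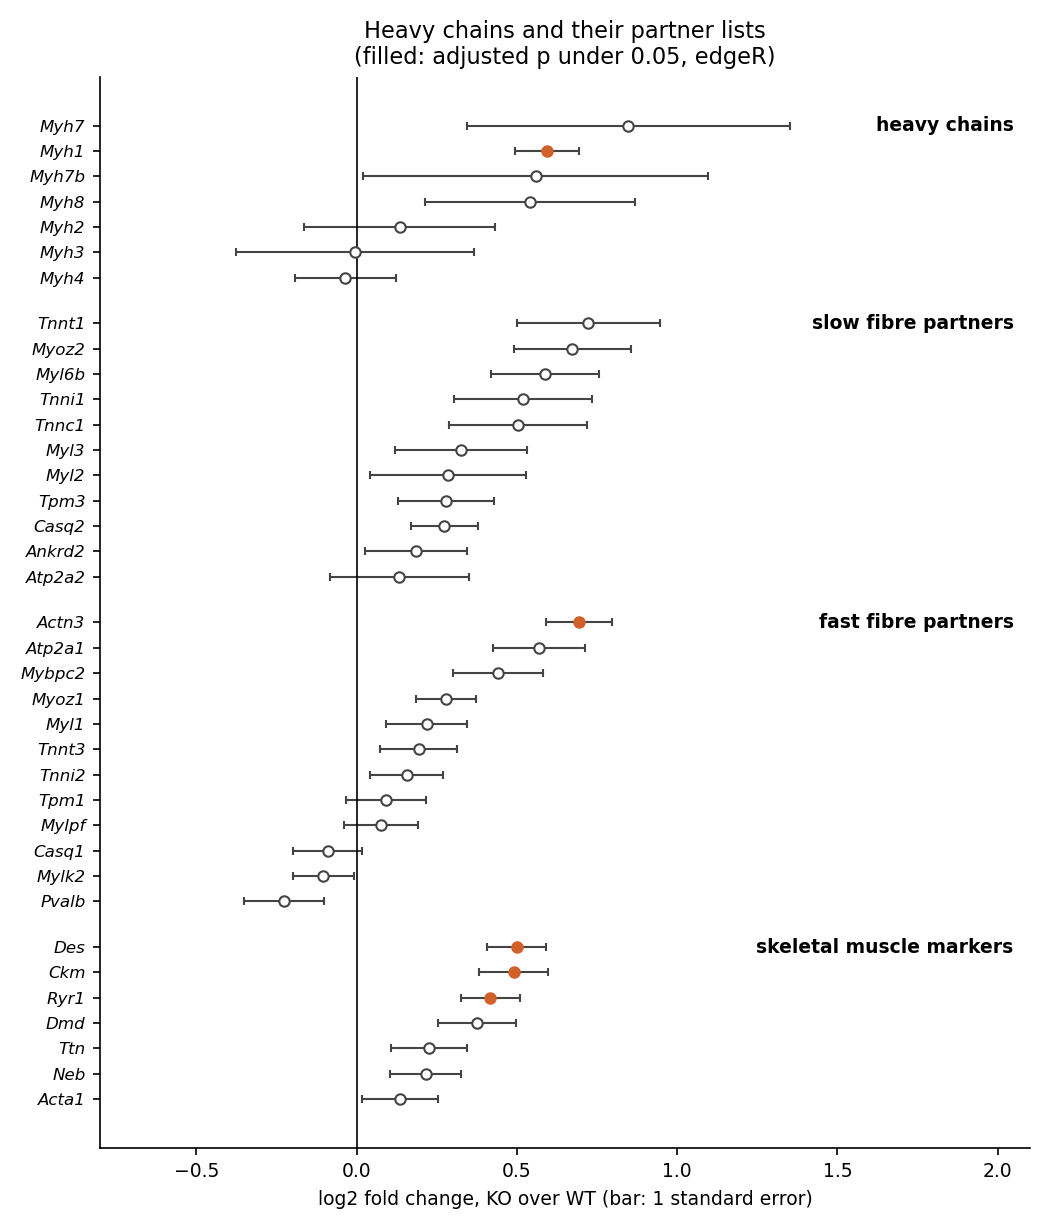
The log2 fold change of KO over WT, with a bar of 1 standard error, is plotted for each tested heavy chain and for the slow fibre partners, fast fibre partners and skeletal muscle markers, with filled symbols for an adjusted p under 0.05 by edgeR. Myh1 (0.59), Actn3 (0.69), Des (0.50), Ckm (0.49) and Ryr1 (0.42) are filled, and Myh7 (0.85) and Myh7b (0.56) have the widest bars.

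Of the markers of other cells in the tissue, only Cd74 passed edgeR's test. All 5 leukocyte markers had a log2 fold change under 0, with a median of -0.74, and 3 passed by DESeq2. All 5 had an unadjusted p under 0.05 by edgeR, against 19.8% of all tested genes. For 4 of the 5, every KO library was below every WT library, as it was for 1804 of the 15075 tested genes. Cd74, the invariant chain of antigen-presenting cells, fell from 89.8 ± 3.38 CPM (SD, n = 3) in WT to 38.0 ± 5.05 CPM in KO muscle (adjusted p = 0.000464 by edgeR's quasi-likelihood test), while 1.37% of all tested genes were lower in KO muscle. Cd68 was at -0.52 (adjusted p = 0.0638) and Ptprc at -0.74 (adjusted p = 0.0753). All 5 red cell markers were also under 0, with a median of -0.85. None passed by edgeR, DESeq2 or limma-voom, although 4 had an unadjusted p under 0.05, 4 were called lower when WT mouse 584 was left out, 5 with no filter on low counts, 1 under upper quartile scaling and 1 where each library had to hold 10 counts or more. The median was -0.42 without WT mouse 595. Hbb-bs was at -0.72 (adjusted p = 0.119), Hba-a1 at -0.85 (adjusted p = 0.0676) and Hbb-bt at -0.87 (adjusted p = 0.0520). Their sum was 4747 to 10387 CPM in WT and 4165 to 4534 CPM in KO libraries, highest in WT mouse 595. The part of the red cell RNA in the difference in Myh1 was not tested. The 4 smooth muscle markers (Acta2, Tagln, Cnn1, Myh11) summed to 29.6 to 54.4 CPM in WT and 35.4 to 45.2 CPM in KO libraries, with no call by edgeR or DESeq2 and 0 of 4 at an unadjusted p under 0.05.

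The genes of developing muscle, like its heavy chains, gave no call. Of the 9 developmental muscle genes 8 were tested and none passed edgeR's test, while 2 had an unadjusted p under 0.05 and 1 passed by DESeq2. Actc1, the cardiac actin that developing muscle also makes, was at 2916 ± 707 CPM (SD, n = 3) in WT and 2180 ± 165 CPM in KO muscle (log2 fold change -0.42, adjusted p = 0.169 by edgeR's quasi-likelihood test). Among the 5 satellite cell and myoblast markers none passed by edgeR or DESeq2, and 0 had an unadjusted p under 0.05. The myogenic factors Myog and Myod1, which are in both lists, were at -0.07 (adjusted p = 0.875) and 0.07 (adjusted p = 0.735), and Mymk, the fusion protein myomaker, at -0.41 (adjusted p = 0.325).

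Of 23 regulators of fibre type, all tested, 1 rose and none fell by edgeR, against 0.896% and 1.37% of all tested genes. In this list 12 genes had an unadjusted p under 0.05, against 19.8% of all tested genes, and both DESeq2 and the fit with no filter on low counts gave 6 higher and 1 lower. The median was 0.29, with 17 above 0. Tead4, a TEAD factor, rose from 0.807 ± 0.182 CPM (SD, n = 3) in WT to 2.31 ± 0.471 CPM in KO muscle (log2 fold change 1.52, SE 0.30, adjusted p = 0.0262 by edgeR's quasi-likelihood test), and the call was lost without WT mouse 583 or 595 or KO mouse 589 or 591. Mef2c, a muscle transcription factor, was at 0.39 (adjusted p = 0.0734). Maf, of the large Maf factors that are known to promote the IIb chain, was at -0.34 (adjusted p = 0.105).

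Among the genes that fold, bind or turn over myosin, the 2 most abundant did not pass edgeR's quasi-likelihood test. Mybpc1, the slow myosin-binding protein C, was at 0.07 (adjusted p = 0.852) and Myom1, the M-band protein myomesin, at 0.25 (adjusted p = 0.211). The 5 class II heavy chains of smooth muscle and non-muscle cells, gave no call by edgeR or DESeq2, and 0 of the 4 tested had an unadjusted p under 0.05. Myh9, Myh10 and Myh14 were at -0.03 (adjusted p = 0.919), -0.20 (adjusted p = 0.398) and 0.25 (adjusted p = 0.542), Myh11 was at 0.00836 (adjusted p = 0.991), and Myh15 had at most 2 counts.

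The genes with the profile nearest to each of 4 heavy chains over the 6 libraries were those with the smallest root mean square difference in log2 CPM. Values were centred on each gene's own mean. The search covered 12448 tested genes with a mean log2 CPM of at least 1. Myh7b, at a mean log2 CPM of -0.60, was under this cut and was not compared. For Myh4 they were Rrp12, Ddc, Tmf1, Oat and Slc16a1, at 0.0519 to 0.0616, against a median of 0.266 over all genes compared. For Myh2 they were Anxa8, Jazf1, Adam12, Atp2a2 and Dram1, at 0.154 to 0.221, of which Atp2a2, the slow calcium pump, is also on the slow fibre list. For Myh7 they were Nutf2-ps1, Clmn, Pon1, Acvr1c and Cyp2f2, at 0.396 to 0.469. Myh7 itself varied by 0.843 on this scale, so none of the genes compared followed it closely. For Myh1, added after its values were seen, they were Cyp2d22, Zfp385a, Ppif, Tuba4a and Pxmp2, at 0.0345 to 0.0725. These likenesses rest on 6 libraries and describe them only.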

How the data were processed

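Muscle RNA from 3 Tarsl2+/+ (WT) and 3 Tarsl2-/- (KO) mice was measured by RNA-seq. The authors deposited unnormalized whole-number counts per gene in 1 table of 53084 rows. The study's methods describe TRIzol extraction, stranded poly(A) libraries, paired-end reads and HISAT2 mapping to mm10. The submitters' processing notes name Bowtie 0.12.2 and mm8 instead, and the extraction label names retinas. The coordinates of 7 of the 9 heavy chain genes were identical to those of GENCODE vM21 on GRCm38, which is mm10. The counting tool and its use of strand and of multiply mapped reads are not given in the sources used here. The 448 rows without a gene name held 0.114% to 0.128% of the counts and were kept. The table also holds a gene length, used for levels per kilobase.

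Genotypes were taken from the sample titles. The title of KO mouse 589 has a letter T after KO that the titles of the other KO mice lack. The meaning of this letter is not given in the sources used here, and the mouse was kept as KO. Nothing says that the mice came from separate litters, so p-values measure the spread between these samples. The filterByExpr step (a minimum of 10 counts and a total of 15) kept 15075 genes. After TMM scaling, edgeR 4.0.16 (R 4.3.3) fitted genotype alone by glmQLFit, glmQLFTest gave the p-values, and these were adjusted over all genes tested (Benjamini-Hochberg, threshold 0.05). CPM values use TMM-scaled library sizes, and a prior count of 2 on the log2 scale. The share of each heavy chain in the summed heavy chain counts was compared by permuting the genotypes over the 6 libraries (exact, two-sided), with an exact 95% binomial interval per library. Reads carry no molecular identifiers, so intervals cover counting error only. The fit was tested on simulated counts.

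The heavy chains and the 13 other gene lists were chosen with earlier results of these data known. Named were all heavy chains, all rows within 10 kb of them, from each list the genes past the threshold plus the most abundant up to 3, and the 5 nearest profiles of Myh7, Myh2 and Myh4. Genes named outside this rule were Tnnc2, Tnnt3, Tnni2, Acta1, Myl4 and the nearest profiles of Myh1. Alternatives were DESeq2 1.42.0, limma-voom (limma 3.58.1), RLE and upper quartile scaling, no filter on low counts, at least 10 counts in every library, shares per kilobase or without Myh4 in the denominator, and each library left out in turn. Coding sequences were aligned with MAFFT. Protein sequences were not used here. Some results for single genes are left out of the text.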

Additional observations from a re-analysis of the deposited data

How the results depend on the processing

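No paired analysis was possible because the labels give no litter or other pairing of WT with KO mice. The number of genes past the threshold, 342, was 671 with DESeq2 and 1437 with no filter on low counts, and 81 to 625 when 1 library was left out, lowest without WT mouse 583 and highest without WT mouse 584. It was 96 without WT mouse 595, 187 without KO mouse 588, 126 without KO mouse 589 and 142 without KO mouse 591. The number of heavy chains past the threshold was 2 with no filter on low counts, where Myh7 was added (log2 fold change 0.84, adjusted p = 1.32e-09), and 0 to 1 when 1 library was left out. In the main fit Myh7 had nearly the same log2 fold change, 0.85, with an adjusted p of 0.385 by edgeR's quasi-likelihood test. Its adjusted p was 0.681 by DESeq2 and 0.570 by limma-voom. Without KO mouse 589 its log2 fold change was -0.17, so the added call depends on the filter and is not firm.

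Over the 6 other fits that kept all libraries, Myh1 stayed between 0.57 and 0.60 and past the threshold (adjusted p from 4.87e-07 to 0.0163), and between 0.51 and 0.65 when 1 library was left out. The log2 fold change of Myh3 was 0.18 with limma-voom (adjusted p = 0.843). When 1 library was left out, log2 fold changes ran from -0.37 to 0.37 for Myh2, -0.36 to 0.50 for Myh3, -0.20 to 0.0779 for Myh4, -0.17 to 1.33 for Myh7, 0.00714 to 1.10 for Myh7b and 0.21 to 0.74 for Myh8, none past the threshold.

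With Myh4 out of the denominator, the KO minus WT difference in share was -5.49 percentage points for Myh2, -0.178 for Myh3, -0.00503 for Myh8 and -0.00532 for Myh13. For Myh1 it was 5.02, but KO mouse 589 then lay below every WT library. With counts per kilobase of exons it was 2.33 for Myh1. When 1 library was left out, the difference ran from 1.96 to 3.04 for Myh1, -3.80 to -1.81 for Myh4, -0.366 to 0.447 for Myh2, -0.0149 to 0.288 for Myh7, -0.00628 to 0.00963 for Myh3 and -0.000919 to 0.00257 for Myh13. The causes of these differences were not tested. Counts under about 70 limit Myh3, Myh6, Myh7b, Myh8 and Myh13.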
